A study of Mus musculus with 2 samples.

Results

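Genes of the IL-1, IL-18 and IL-33 receptor family were examined in Treg cells with and without USP21. The family was taken as 10 genes by symbol, namely the receptor chains *Il1r1*, *Il1r2*, *Il1rl1*, *Il1rap*, *Il18r1* and *Il18rap* and the intracellular adaptors *Myd88*, *Irak1*, *Irak2* and *Irak4*. All 10 were found among the 16830 genes of the expression table, and 9 of them had a mean level of at least 1 FPKM, that is, fragments relative to transcript length and to the mapped fragments of the library. The data were 2 RNA-seq libraries of CD4+CD25hiYFP+ Treg cells from spleen and lymph node of C57BL/6 mice aged 6 months. WT Treg cells came from Foxp3-YFP-Cre mice, and USP21-ΔTreg cells came from Foxp3-YFP-Cre mice that also carried USP21-floxp/floxp alleles. Both genotypes thus bear the YFP-tagged Cre, which is driven by the *Foxp3* locus, so deletion depends on *Foxp3* having been transcribed in a cell. The labels do not say how many animals gave each library. There was 1 library per genotype, so no test was possible, and each difference below is one between 2 libraries whose spread between animals is unknown.

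Receptors of this family share a design in which a ligand-binding chain recruits an accessory chain, and the paired intracellular domains then engage MYD88 and the IRAK kinases to activate NF-κB and MAP kinases. IL-1R1 is the signalling receptor for IL-1, IL-1R2 is a decoy that binds IL-1 without signalling, and IL-1RAP is the accessory chain for both IL-1 and IL-33 receptors. ST2, encoded by *Il1rl1*, binds IL-33 and marks Treg cells of barrier tissues and activated Treg cells, while the IL-18 receptor is a feature of Th1 cells, NK cells and many effector Treg cells.

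Both start sites that RefSeq gives for *Il1rl1*, and single start sites of *Il1r2*, *Il18r1* and *Myd88*, are shown because they were the promoter windows of the family that held a motif searched for. Each window runs from 250 bases before to 50 bases after a start site on GRCm38.p6, on the strand of the gene, with matches in capitals on either strand, so that AGATAA on the opposite strand reads TTATCT. In mice the upstream *Il1rl1* promoter is known from haematopoietic cells and the downstream one from fibroblasts, and GATA factors act at this gene.
Il1r2, chr1:40085843-40086142, plus strand: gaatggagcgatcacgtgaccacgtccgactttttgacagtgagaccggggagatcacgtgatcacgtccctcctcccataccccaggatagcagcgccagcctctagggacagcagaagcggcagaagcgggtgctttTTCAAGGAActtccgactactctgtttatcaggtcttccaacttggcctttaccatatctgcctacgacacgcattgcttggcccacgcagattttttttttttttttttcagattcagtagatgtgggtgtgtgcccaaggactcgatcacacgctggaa
Il1rl1 upstream start, chr1:40429320-40429619, plus strand: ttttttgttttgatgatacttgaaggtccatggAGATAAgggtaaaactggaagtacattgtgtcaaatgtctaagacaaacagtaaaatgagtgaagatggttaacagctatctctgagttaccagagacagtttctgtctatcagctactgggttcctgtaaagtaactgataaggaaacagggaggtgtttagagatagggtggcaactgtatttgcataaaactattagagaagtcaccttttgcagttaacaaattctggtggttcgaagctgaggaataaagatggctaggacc
Il1rl1 downstream start, chr1:40439379-40439678, plus strand: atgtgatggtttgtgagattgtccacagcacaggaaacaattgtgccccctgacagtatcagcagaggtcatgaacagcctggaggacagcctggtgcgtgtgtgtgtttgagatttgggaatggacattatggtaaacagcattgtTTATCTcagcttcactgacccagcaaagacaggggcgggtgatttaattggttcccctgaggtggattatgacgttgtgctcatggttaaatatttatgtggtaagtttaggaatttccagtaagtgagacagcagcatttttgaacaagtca
Il18r1, last of 3 start sites, chr1:40465756-40466055, plus strand: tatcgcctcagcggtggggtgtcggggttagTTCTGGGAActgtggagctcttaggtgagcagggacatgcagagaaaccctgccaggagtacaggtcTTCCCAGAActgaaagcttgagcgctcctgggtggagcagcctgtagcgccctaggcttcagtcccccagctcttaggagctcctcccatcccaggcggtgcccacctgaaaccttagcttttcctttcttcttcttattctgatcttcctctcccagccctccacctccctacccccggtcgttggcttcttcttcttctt
Myd88, chr9:119339969-119340268, minus strand: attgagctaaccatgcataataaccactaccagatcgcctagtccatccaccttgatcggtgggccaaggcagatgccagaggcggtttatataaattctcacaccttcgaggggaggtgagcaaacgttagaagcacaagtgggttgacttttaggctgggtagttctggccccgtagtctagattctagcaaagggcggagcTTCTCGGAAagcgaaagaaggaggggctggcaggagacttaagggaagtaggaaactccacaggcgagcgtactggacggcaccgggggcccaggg

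The GATA motif AGATAA, read on both strands, was found in 2 of the 15 promoter windows of the family, which were the 2 windows of *Il1rl1*, and in 11.2% of all 32851 windows. The STAT-type motif TTCNNNGAA, which is its own reverse complement, was found in 3 of 15 windows, those of *Il1r2*, *Il18r1* and *Myd88*, and in 8.30% of all. Neither the AP-1 motif TGANTCA, present in 7.81% of all windows, nor the NF-κB consensus, present in 5.80%, was found in any of the 15. These 15 windows belong to 10 genes and are not independent. Both windows of *Irak1* share most of their bases, as do 2 of the 3 windows of *Il18r1*. The motifs shown do not overlap each other. A match says only that these letters occur, and the locus of *Il1rl1* in the files starts 10079 bases after the upstream start and 20 bases after the downstream one.

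The deleted gene and the identity of the cells were checked first. *Usp21* stood at 11.8 FPKM in WT and 4.56 FPKM in USP21-ΔTreg cells, values for the whole gene that can include exons outside the deleted part. *Foxp3*, which defines Treg cells, was present in both but stood lower in USP21-ΔTreg cells, at 91.8 and 55.2 FPKM and a count ratio, that of fragment counts scaled between libraries, of 0.553 (95% Clopper-Pearson interval 0.533 to 0.573). The Treg genes *Ctla4* and *Ikzf2* stood at 516 and 532 FPKM and at 186 and 220 FPKM, with count ratios of 0.789 and 0.853, so their direction depended on the scale. *Cd3e*, a general T cell gene, and *Cd4*, which marks CD4 T cells, stood at 79.3 and 133 FPKM in WT and at 131 and 204 FPKM in USP21-ΔTreg cells. Fragments in genes numbered 23198411 and 23418576. *Il2ra*, the gene of the sorting marker CD25, stood at 168 and 19.3 FPKM although both populations were sorted as CD25hi. Markers of other cells were mostly higher in USP21-ΔTreg cells. Summed levels in WT and USP21-ΔTreg cells were 31.2 and 59.8 FPKM for 11 neutrophil and monocyte markers. They were 23.1 and 61.8 FPKM for 9 NK and CD8 T cell markers, and 10.2 and 25.6 FPKM for 5 B cell markers. The highest of these lists in WT Treg cells were *S100a8* (14.0 FPKM), *Nkg7* (10.2 FPKM) and *Cd79b* (7.79 FPKM). For 5 stromal and endothelial markers the sums were 28.5 and 40.8 FPKM, mainly from *Pecam1* (28.0 and 40.5 FPKM).

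Across the family, levels in WT Treg cells ran from 0.0922 FPKM for *Il1r1* to 56.6 FPKM for *Il18r1*. The order in WT Treg cells was *Il18r1*, *Il1r2*, *Il1rl1*, *Myd88*, *Irak1*, *Irak2*, *Irak4*, *Il18rap*, *Il1rap* and *Il1r1*. Only *Irak4* (9.82 FPKM, 95% counting interval 9.09 to 10.6) and *Il18rap* (9.06 FPKM, 8.38 to 9.79) had overlapping intervals among neighbours in that order. In USP21-ΔTreg cells *Il18r1* was again the highest, followed by *Il1rl1* and *Il1r2*, and the intervals of *Myd88* (21.1 FPKM, 19.8 to 22.6) and *Irak2* (20.8 FPKM, 19.8 to 21.9) overlapped. The intervals are exact Poisson intervals for fragment counting alone, and fragments were not counted by molecular identifier.

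**Figure D1:**
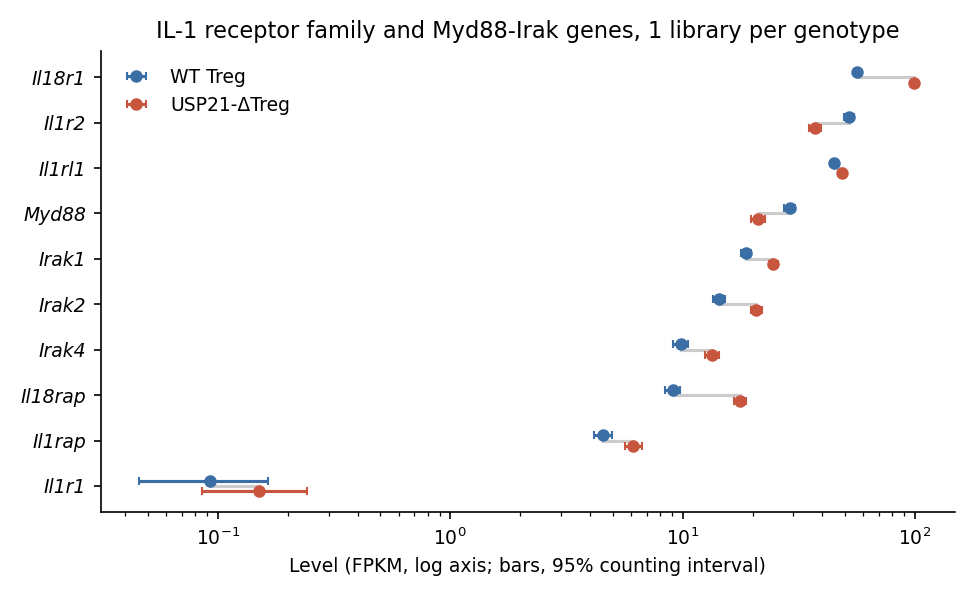
Level of each gene in FPKM on a log axis in the library of WT Treg cells (blue) and of USP21-ΔTreg cells (red), with 95% counting intervals as bars. *Il18r1* stood at 56.6 and 99.2 FPKM and *Il1r1* lay below 1 FPKM in both libraries.

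None of the 9 genes measured at a mean of at least 1 FPKM was 2-fold higher or lower in USP21-ΔTreg cells. Of all 10948 genes at that level, 7.78% were higher by that limit and 6.20% lower on FPKM, and 4.34% and 7.93% on fragment counts scaled between libraries. The median log2 fold change of the 9 genes, computed on FPKM + 0.1 as USP21-ΔTreg over WT, was 0.42, beside 0.20 for all genes kept. On scaled counts with 1 fragment added, both medians were lower, at 0.22 and −0.01. At a 1.5-fold limit *Il18r1* and *Il18rap* were higher on FPKM and *Il18rap* on scaled counts, where 22.9% and 13.0% of all genes kept were, and *Il1r2* was lower on scaled counts alone, where 16.6% were, beside 12.1% on FPKM. Of the 9 genes, 7 had a fold change above 0 on FPKM, and 6 did on scaled counts, where 49.4% of all genes kept lay above 0 compared with 63.4% on FPKM.

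**Figure D2:**
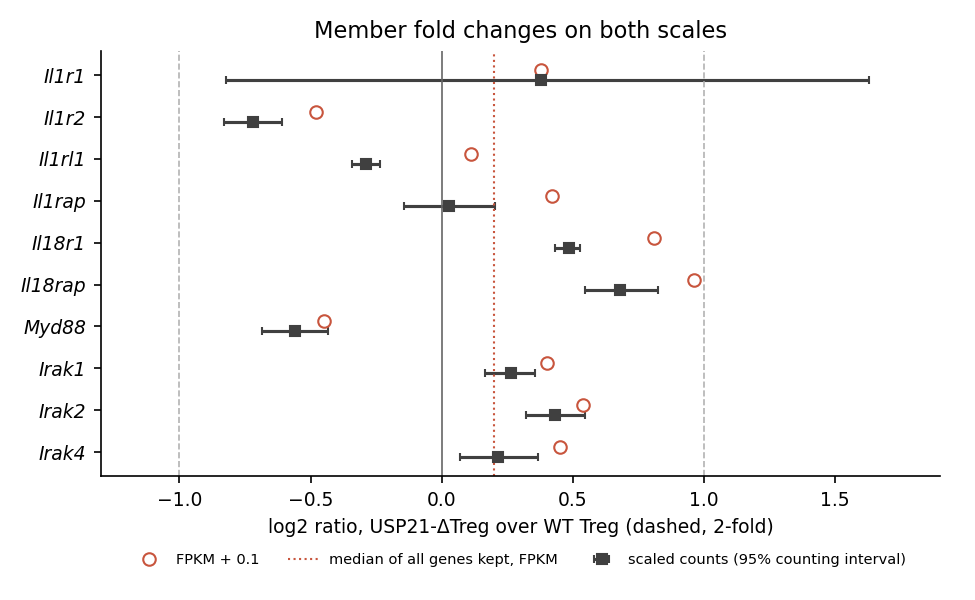
Log2 ratio of USP21-ΔTreg over WT Treg for each gene on FPKM + 0.1 (open circles) and on scaled counts (squares, with 95% Clopper-Pearson counting intervals). Dashed lines mark 2-fold and the dotted line the median of all genes kept on FPKM, 0.20, and no symbol lies past 2-fold, although the interval of *Il1r1* reaches beyond it.

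Both chains of the IL-18 receptor stood higher in USP21-ΔTreg cells, and they were the family members farthest above 0. *Il18r1*, the ligand-binding chain, stood at 56.6 FPKM in WT and 99.2 FPKM in USP21-ΔTreg cells, from 6027 and 9438 fragments. The count ratio was 1.40 (95% Clopper-Pearson interval 1.35 to 1.44), and the log2 fold change on FPKM was 0.81. *Il18rap*, the accessory chain needed for signalling, stood at 9.06 and 17.7 FPKM, from 652 and 1172 fragments, with a count ratio of 1.60 (1.46 to 1.77). Its log2 fold change on FPKM, 0.96, fell just short of 2-fold. Within a library the accessory chain was far less abundant than the binding chain, with a ratio of *Il18rap* to *Il18r1* in FPKM of 0.160 in WT Treg and 0.179 in USP21-ΔTreg cells. The T cell genes *Cd3d*, *Cd3e* and *Cd4* had count ratios of 1.43, 1.44 and 1.42, near that of *Il18r1*, and *Cd3g* one of 1.89. The Treg genes of the same list had count ratios below 1, at 0.789 for *Ctla4*, 0.853 for *Ikzf2*, 0.553 for *Foxp3* and 0.0909 for *Il2ra*. On FPKM, however, *Ctla4* and *Ikzf2* had log2 fold changes above 0, at 0.04 and 0.24, so their direction depended on the scale. NK and CD8 T cell markers, from cells that also bear the IL-18 receptor, were higher too, among them *Klrd1* (0.699 and 15.8 FPKM), *Cd8a* (1.02 and 5.01 FPKM), *Cd8b1* (8.13 and 16.2 FPKM) and *Nkg7* (10.2 and 18.4 FPKM). *Klrd1*, like *Il2ra*, is a gene that the study displayed for its difference in these libraries. The part of these markers in the IL-18 receptor values was not tested, and in bulk RNA fewer or more cells of a type cannot be told apart from less or more RNA per cell.

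The IL-1 receptor genes were dominated by the decoy in both libraries, and the decoy stood lower in USP21-ΔTreg cells. *Il1r2* stood at 52.1 FPKM in WT and 37.2 FPKM in USP21-ΔTreg cells, from 1707 and 1163 fragments. That gave a count ratio of 0.607 (95% Clopper-Pearson interval 0.563 to 0.655) and a log2 fold change of −0.48 on FPKM. *Il1r1*, the signalling receptor, stood at 0.0922 and 0.150 FPKM, from only 11 and 16 fragments. Its count ratio was 1.30 with an interval of 0.565 to 3.09, so a difference in *Il1r1* was not detectable at this depth. Per transcript length, the decoy exceeded the signalling receptor 565-fold in WT Treg cells (315 to 1130) and 249-fold in USP21-ΔTreg cells (152 to 437), and these counting intervals overlap. *Il1r2* is also a gene of neutrophils and monocytes. Of 5 markers of these cells with a mean of at least 1 FPKM, *S100a9* (7.27 and 16.0 FPKM), *Lyz2* (2.03 and 6.41 FPKM), *Retnlg* (0.303 and 3.49 FPKM) and *S100a8* (14.0 and 26.6 FPKM) stood higher in USP21-ΔTreg cells and *Ly6c2* stood at 6.51 and 5.58 FPKM, and their part in the *Il1r2* values was not tested.

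*Il1rl1*, which encodes the IL-33 receptor ST2, was abundant in both libraries, and its direction depended on the scale. It stood at 44.8 FPKM in WT and 48.5 FPKM in USP21-ΔTreg cells, a log2 fold change of 0.11, whereas 5750 and 5278 fragments gave a count ratio of 0.818 (0.788 to 0.850). Relative to the median of all genes kept its FPKM fold change lay below 0 as well. No firm direction can therefore be given for *Il1rl1*. *Il1rap*, the accessory chain that ST2 and IL-1R1 both need, was much scarcer at 4.55 and 6.14 FPKM, and its count ratio, 1.02 (0.906 to 1.15), held 1. *Il1rl1* exceeded *Il1rap* 9.85-fold in FPKM in WT Treg cells (8.99 to 10.8) and 7.90-fold in USP21-ΔTreg cells (7.25 to 8.62). Mast cells, basophils and ILC2 bear ST2 too. None of 11 markers for them reached a mean of 1 FPKM, and their summed level was 1.41 FPKM in WT and 2.99 FPKM in USP21-ΔTreg cells, with 5 of them at 0 in WT and 1 in USP21-ΔTreg. The basophil genes *Mcpt8* and *Prss34* had no fragment in WT Treg and 15 each in USP21-ΔTreg cells, and *Il5*, a product of ILC2 and Th2 cells, had 34 and 3. The part of these cells in the *Il1rl1* values was not tested.

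As shares of the receptor chains, the decoy made up less and *Il18r1* more of the sum in USP21-ΔTreg cells. The 6 receptor genes summed to 167 FPKM in WT and 209 FPKM in USP21-ΔTreg cells. The share of *Il18r1* was 33.8% in WT Treg and 47.5% in USP21-ΔTreg cells, while *Il1r2* made up 31.2% and 17.8%. *Il1rl1* made up 26.8% and 23.2%. The ratio of *Il18r1* to *Il1rl1* in FPKM was 1.26 (1.22 to 1.31) in WT Treg and 2.05 (1.98 to 2.12) in USP21-ΔTreg cells, a difference larger than counting error.

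Among the adaptors, *Myd88* stood lower and all 3 IRAK kinase genes stood higher in USP21-ΔTreg cells. A fold change above 0 was common, at 63.4% of all genes kept on FPKM and 49.4% on scaled counts. The FPKM fold changes of *Irak1*, *Irak4* and *Irak2* lay above those of 64.3%, 68% and 74.3% of genes kept. *Myd88*, the adaptor that links the receptors to the kinases, stood at 28.9 FPKM in WT and 21.1 FPKM in USP21-ΔTreg cells, with a count ratio of 0.678 (0.622 to 0.740). *Irak4*, the first kinase of the complex, stood at 9.82 and 13.4 FPKM, a count ratio of 1.16 (1.05 to 1.29). *Irak1*, which IRAK4 phosphorylates, stood at 18.7 and 24.6 FPKM (1.20, 1.12 to 1.28). *Irak2*, which sustains signalling at later times, stood at 14.3 and 20.8 FPKM (1.35, 1.25 to 1.46). *Myd88* was thus the most abundant adaptor gene in WT Treg cells, at 40.3% of the summed FPKM of these 4 genes, and *Irak1* was in USP21-ΔTreg cells, at 30.8%, against 26.4% for *Myd88*. *Irak4* stood at 0.340 of the FPKM of *Myd88* in WT Treg cells (0.309 to 0.374) and at 0.635 in USP21-ΔTreg cells (0.578 to 0.697). *Myd88* overlaps the 5′ end of *Acaa1a* on the opposite strand, and whether counting used strand is not given in the sources used here, so reads in that overlap may belong to either gene. *Slc22a14*, on the same strand, also overlaps *Myd88*, from 119335934 to 119341411, and is not among the genes of the expression table. Strand cannot separate these genes, and the part of *Slc22a14* in the *Myd88* values was not tested.

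Fold changes on FPKM lay above those on scaled counts for each of the 9 genes, by 0.10 to 0.40 on the log2 scale, beside a median of 0.19 for all genes kept. The shift was 0.40 for *Il1rl1*, 0.39 for *Il1rap*, 0.33 for *Il18r1* and 0.28 for *Il18rap*, whose longest GENCODE transcripts have a GC content of 43.4%, 42.1%, 44.0% and 45.1%. It was 0.11 for *Myd88*, 0.13 for *Irak1* and 0.10 for *Irak2*, with 53.5%, 52.8% and 53.1%, against a median GC content of 49.4% for genes kept. The part of GC content in the shift was not tested. On scaled counts, intervals lay above 1 for 5 of the 10 genes, below 1 for 3 and around 1 for 2, which were *Il1r1* and *Il1rap*.

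Of the family, 5 genes lie in 1 gene cluster, and they did not share a direction. *Il1r2*, *Il1r1*, *Il1rl1*, *Il18r1* and *Il18rap* lie in this order on the plus strand of chromosome 1 of mm10, from 40076212 to 40549297, a span of 473 kb. *Il1r2* stood lower at one end, with log2 fold changes of −0.48 on FPKM and −0.72 on scaled counts, and *Il18rap* higher at the other, with 0.96 and 0.68. *Il1rl1* and *Il18r1* are only 137 bases apart in the files, yet had fold changes of 0.11 and 0.81 on FPKM and −0.29 and 0.48 on scaled counts. Within the cluster, *Il1rl2*, which encodes the IL-36 receptor, stood at 0.725 and 0.923 FPKM. Within 200 kb on either side, the kinase gene *Map4k4* stood at 27.1 and 33.9 FPKM and the sodium-proton exchanger gene *Slc9a2* at 0.0508 and 0.0528 FPKM. *Gm16894* overlaps *Il1r2* on the minus strand and had 20 and 34 fragments against 1707 and 1163 for *Il1r2*. The files give both genes the same locus, 40076212 to 40125226, so the start of the cluster need not be that of *Il1r2*. Of the other members, *Il1rap* lies on chromosome 16 (26581705 to 26725147), *Myd88* on chromosome 9 (119335988 to 119340040), *Irak1* on chromosome X (74013914 to 74023921), *Irak2* on chromosome 6 (113638467 to 113695027) and *Irak4* on chromosome 15 (94543660 to 94568316).

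**Figure D3:**
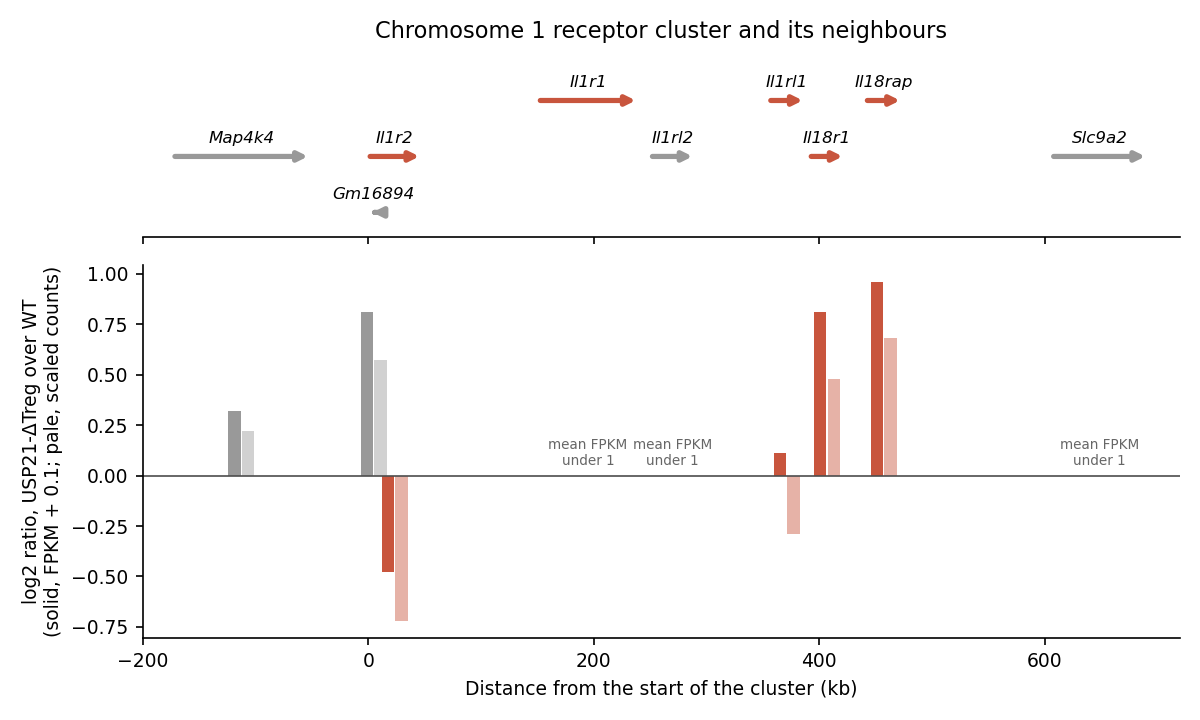
Gene order of the receptor cluster (top, arrows in the direction of transcription, family members in red, other genes in grey) and log2 ratio of USP21-ΔTreg over WT Treg (bottom) against distance in kb from the start of the cluster. Solid bars are FPKM + 0.1 and pale bars scaled counts, and the bars of *Il1r2* (−0.48 and −0.72) and *Il18rap* (0.96 and 0.68) point in opposite directions.

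Further genes of the pathway were described by list, and the lists were chosen with earlier results of these data known. Among all genes kept, 7.78% were at least 2-fold higher and 6.20% lower on FPKM, and 4.34% and 7.93% on scaled counts. Of 4 measured ligand and antagonist genes, *Il1rn* and *Il1b* were lower by 2-fold or more in USP21-ΔTreg cells and *Il18* at least 2-fold higher. *Il1rn*, which encodes the soluble IL-1 receptor antagonist, stood at 3.88 FPKM in WT and 0.390 FPKM in USP21-ΔTreg cells, from 221 and 19 fragments, a count ratio of 0.0767 (0.0453 to 0.123). *Il1b* stood at 1.84 and 0.354 FPKM, from 61 and 11 fragments, and *Il18* at 0.720 and 1.79 FPKM, from 16 and 36. The count ratio of *Il18* was 2.01 (1.09 to 3.87), and with 1 fragment added to these low counts its log2 fold change was 0.96, short of 2-fold. *Il18bp*, whose product neutralizes IL-18, stood at 7.51 and 6.94 FPKM. *Il33* had 2 and 1 fragments, so no difference in the ligand of ST2 was detectable at this depth. *Sigirr*, an inhibitory receptor of the family, stood at 55.3 and 65.1 FPKM, a level like that of *Il18r1* in WT Treg cells.

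Below the receptors, most inhibitor and relay genes lay within 2-fold, and a few stood far apart. Among all genes kept, 14.0% were at least 2-fold higher or lower on FPKM and 12.3% on scaled counts. Of 11 inhibitors of this step, among which *Il1rl1* is counted for its inhibitory form, *Tnfaip3* and *Irak3* were at least 2-fold higher, *Socs1* was at least 2-fold lower and 8 lay between, with a median log2 fold change of 0.23. *Tnfaip3*, which encodes the deubiquitinase A20, stood at 95.7 FPKM in WT and 247 FPKM in USP21-ΔTreg cells, a count ratio of 2.22 (2.17 to 2.27). *Irak3*, the inhibitory member of the IRAK family, stood at 1.56 and 3.75 FPKM (1.95, 1.58 to 2.41), and was short of 2-fold on scaled counts. *Socs1*, which restrains cytokine signalling, had a log2 fold change of −3.01, and *Otud7b* one of 0.54. Of 18 genes that relay the signal, 17 lay within 2-fold, with a median of 0.22. The exception was *Map3k8*, a MAP kinase kinase kinase activated by the NF-κB branch, at 24.6 and 6.13 FPKM, which the study also displayed for its difference in these libraries. *Traf6*, the ubiquitin ligase next after the IRAK kinases, stood at 31.2 and 17.7 FPKM and passed 2-fold only on scaled counts, with a ratio of 0.451 (0.427 to 0.475). *Map2k6* and *Map3k3*, kinase genes of the MAP kinase branch, had log2 fold changes of 0.89 and 0.77 on FPKM.

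All 11 genes of NF-κB subunits and their inhibitors had a fold change below 0. The median of the list was −0.79 on FPKM and −0.80 on scaled counts. Of all genes kept, 63.4% lay above 0 on FPKM and 49.4% on scaled counts. The smallest change was that of *Rela*, at −0.06 on FPKM and −0.05 on scaled counts. Of the 11 genes, 4 were at least 2-fold lower on either scale. *Nfkbia*, an inhibitor and a textbook target of NF-κB, stood at 393 FPKM in WT and 160 FPKM in USP21-ΔTreg cells, a count ratio of 0.367 (0.356 to 0.379). *Bcl3* (−1.86), *Nfkb2* (−1.15) and *Nfkbiz* (−1.05), which encode an atypical inhibitor, the p100 precursor and a nuclear cofactor, were the others. *Tnfaip3*, another NF-κB target, stood higher, as given above. The 6 lists of ligands, chains, inhibitors, relay, NF-κB and Toll-like receptors held 49 genes kept. *Sigirr*, which is in more than 1 list, was counted once, and *Il1rl1* was left out as a family member. Of the 49 genes, 5 were at least 2-fold higher and 8 lower, with a median of −0.03 on FPKM. On scaled counts 3 were higher and 10 lower, with a median of −0.21. Over all genes kept, 7.78% were higher and 6.20% lower on FPKM, and 4.34% and 7.93% on scaled counts.

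**Figure D4:**
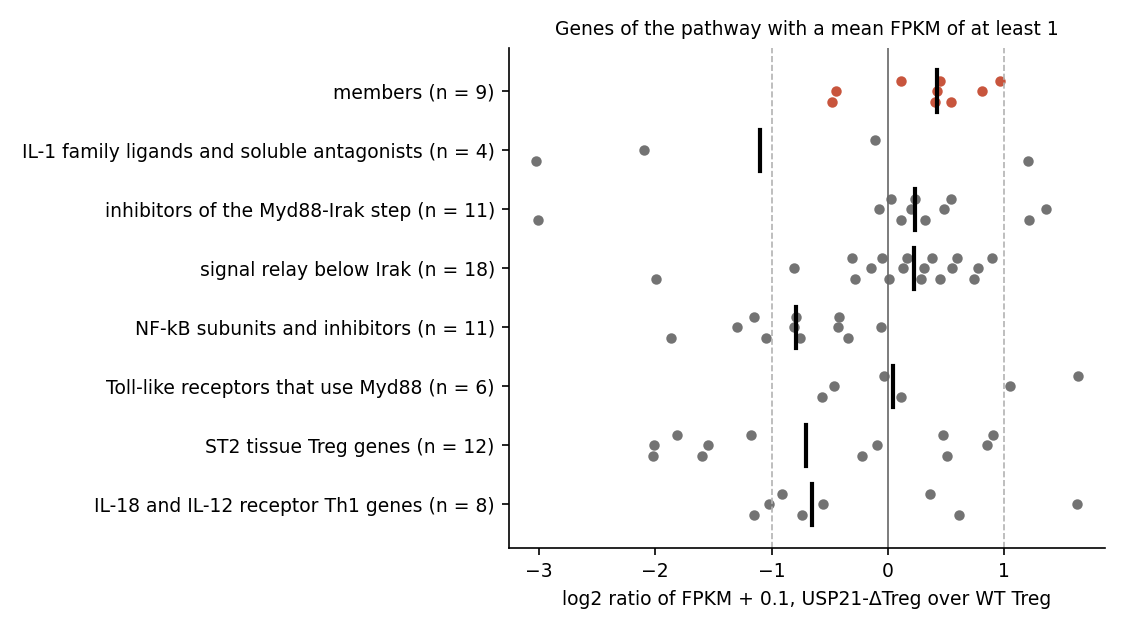
Log2 fold change on FPKM + 0.1 of each gene with a mean FPKM of at least 1, by list, with the family in red and each list's median as a black bar. The median was 0.42 for the family and −0.79 for NF-κB subunits and inhibitors, whose points all lie below 0.

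Several genes that go with ST2 in tissue Treg cells stood lower in USP21-ΔTreg cells. Of 12 measured genes of this list, 6 were lower by 2-fold or more in USP21-ΔTreg cells and none was higher, on FPKM as on scaled counts, with medians of −0.70 and −0.89. Of all genes kept, 6.20% and 7.93% were lower by that limit on these scales, and 7.78% and 4.34% higher. The list was chosen with earlier results of these data known, so the count is a description only. *Areg*, which encodes the repair factor amphiregulin, stood at 11.8 FPKM in WT and 3.83 FPKM in USP21-ΔTreg cells, and *Nfil3* at 67.1 and 19.1 FPKM. *Irf4* (−2.01) and *Tnfrsf9* (−2.02) were also among the 6. The study displayed both for their difference in these libraries, so they are not independent evidence of a direction. *Gata3*, which encodes a factor known to activate *Il1rl1*, stood at 39.1 and 33.4 FPKM. *Klrg1*, a surface marker of such cells, stood at 21.6 and 40.4 FPKM.

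Genes that accompany the IL-18 receptor in Th1 cells stood on both sides of 0. Of 8 such genes *Cxcr3* was at least 2-fold higher, *Ifng* and *Tbx21* were lower and 5 lay between on FPKM. Their median was −0.65, beside 0.20 for all genes kept. Among all genes kept, 7.78% were higher by that limit and 6.20% lower on FPKM, and 4.34% and 7.93% on scaled counts. This list too was chosen with earlier results of these data known. *Cxcr3*, a chemokine receptor of Th1 cells likewise displayed by the study, stood at 51.8 FPKM in WT and 160 FPKM in USP21-ΔTreg cells. *Tbx21*, the gene of the Th1 lineage factor T-bet, stood at 9.49 and 4.62 FPKM, and *Ifng* at 9.47 and 4.23 FPKM. *Il12rb1*, a chain of the IL-12 receptor, which acts together with IL-18, stood at 29.3 and 15.5 FPKM. On scaled counts *Il12rb2* was at least 2-fold lower too, with a log2 fold change of −1.04.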

How the data were processed

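RNA of both sorted populations was sequenced by the authors. Per the labels and methods, reads were mapped to mm10 with TopHat2 2.0.9, and the authors obtained FPKM values with Cufflinks 2.1.1 and a reference annotation. The deposited estimated counts are fragment counts that the authors scaled between libraries, with sums of 23872114 for WT and 21487430 for USP21-ΔTreg cells. Each fragment counted 1.029 in WT and 0.9175 in USP21-ΔTreg cells, so counts were divided by these values and rounded, and 97.2% of values above 0 in each library were whole to within 0.02. The methods name a stranded total RNA kit and the labels another TruSeq RNA kit.

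Fold changes were log2 ratios of FPKM + 0.1 for genes whose FPKM averaged 1 or more over both libraries, and a 2-fold limit was used. FPKM + 0.1 understates fold changes of low genes. Counting intervals (95%) were exact Poisson for levels and Clopper-Pearson for ratios. Coordinates come from the files, with 1 added to the start, as 48.0% of starts then matched a GENCODE M21 transcript start and 5.31% otherwise. Transcript GC content came from GENCODE and promoters from RefSeq GRCm38.p6. The steps, run in Python 3.11.15 with scipy 1.17.1, pandas 2.3.3, numpy 2.4.6 and, for plots, matplotlib 3.10.9, were tested on simulated data. Protein sequences were not used here. Members and lists were chosen with earlier results of these data known. Genes named were the members, genes of the cluster, *Usp21*, *Foxp3*, *Il2ra* and from each list up to 4 genes with the largest fold change, and all of a list with at most 5 measured genes. *Cd3d*, *Cd4*, *Ctla4*, *Ikzf2*, *Rela*, *Gata3*, *Klrg1*, *Il12rb2*, *Il33*, *Mcpt8*, *Prss34* and *Il5* were added after their values were seen. *Acaa1a* and *Slc22a14* were named for their overlap with *Myd88*.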

Additional observations from a re-analysis of the deposited data

How the results depend on the processing

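No gene of the family was 2-fold apart with 1 or 0.01 FPKM added, after median centring, after upper quartile scaling, on scaled counts, without a filter or at a mean FPKM of at least 5. At a limit of 1.5-fold on FPKM 2 were higher, *Il18r1* and *Il18rap*, and none was lower, where 22.9% of all genes kept were higher and 12.1% lower, and on scaled counts *Il18rap* was higher and *Il1r2* lower. The family median of 0.42 became 0.23 after median centring, which takes 0.20 from each fold change, and 0.22 on scaled counts. *Il1rl1* changed sign in these 2 settings, and no other member did in any. Pathway genes at least 2-fold higher numbered 5, but 2 with 1 FPKM added and 3 on scaled counts. No paired analysis was possible because only 1 library stood for either genotype, and leaving out a library was not possible for the same reason. The protein comparison was not run. Depth limits *Il1r1* alone among the members, as the other 9 had at least 505 fragments in each library.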

Other observations

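Toll-like receptors use the same MYD88 and IRAK proteins as the receptors above. Of 6 measured genes of those that signal through MYD88, *Tlr4*, the receptor for lipopolysaccharide, and *Tlr12* were higher by 2-fold or more in USP21-ΔTreg cells and none was lower, with a median log2 fold change of 0.04 on FPKM. The shares of all genes kept past that limit were 7.78% upward and 6.20% downward on FPKM, and 4.34% and 7.93% on scaled counts. *Tlr4* stood at 0.902 FPKM in WT and 3.0 FPKM in USP21-ΔTreg cells, from 91 and 245 fragments, a count ratio of 2.40 (95% Clopper-Pearson interval 1.88 to 3.09). *Tlr12* was low in both libraries too, at 1.18 and 2.54 FPKM, with a count ratio of 2.04 (1.52 to 2.77). The monocyte gene *Lyz2* had 54 and 163 fragments, a ratio of 2.69 (1.97 to 3.73), and its part in the *Tlr4* value was not tested. *Tlr1*, the most abundant of the list, stood at 36.3 and 26.4 FPKM. *Tlr7*, a sensor of single-stranded RNA, stood at 9.76 and 6.52 FPKM and was at least 2-fold lower on scaled counts alone, with a ratio of 0.483 (0.433 to 0.539).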
